A study of Mus musculus with 42 samples.

Results

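The clustered protocadherins are cell-surface adhesion genes that lie side by side on one chromosome, and 24 of the 35275 genes listed in both deposited mouse cerebellum tables carry one of their names and are protein-coding. They were chosen by symbol alone (Pcdha, Pcdhac, Pcdhb, Pcdhga, Pcdhgb or Pcdhgc followed by a number). No measured value entered this rule, but earlier results of these data were known when it was chosen. The 24 comprise 22 beta genes, Pcdhb1 to Pcdhb22, and 1 entry each for the alpha and gamma clusters. RNA was sequenced from whole cerebellum of male C57BL/6 mice that started a feeding regimen at 3 months of age and kept it for 3 months. The 6-month-old groups were fed ad libitum (AL), fasted for 16 h each day (IF16) or fasted for 24 h on alternate days (EOD). The 8-month-old groups (AL-R, IF16-R, EOD-R) had the same 3 months followed by 2 months of free access to food. All groups were of one strain and sex with no transgene, and each held 5 RNA libraries. The libraries are numbered replicates that the labels do not tie to individual mice, so the p-values measure the spread between these libraries. H3K9me3 chromatin libraries of the same design were not analysed here.

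Clustered protocadherins give neurons a surface identity. Each alpha and gamma variable exon has a promoter of its own and is spliced to constant exons shared by its cluster, whereas each beta gene is a single coding exon without a shared cytoplasmic part. Neurons choose a small combination of promoters, the proteins join in cis and bind like partners in trans, and matching neighbours are repelled, which keeps dendrites of one cell, including Purkinje cells, from crossing. Promoter choice depends on CTCF and cohesin looping to distant enhancers, and unchosen promoters carry DNA methylation. SETDB1, which deposits H3K9me3, and SMCHD1 hold the clusters silent in part. Bulk tissue averages over all these choices: fewer cells using a promoter and less RNA per cell cannot be told apart.

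In the deposited annotation (mm10) the array spans positions 36930285 to 37841873 of chromosome 18, 911.6 kb on the plus strand, in the order alpha, beta, gamma. The alpha entry, named Pcdha10 (ENSMUSG00000007440), runs from 36930285 to 37187657, and 14 alpha genes of RefSeq start inside it. The gamma entry, named Pcdhga12 (ENSMUSG00000023036), runs from 37674335 to 37841873. Of the 22 gamma genes of RefSeq 20 start inside it, and Pcdhga1 and Pcdhga2 start before it. These symbols therefore stand for loci that hold many genes, and the alpha and gamma isoforms, including the 5 C-type genes that are expressed more evenly across neurons, could not be told apart in the counts. The 22 beta genes fill 256.4 kb, each as a single block of 2340 to 7131 bases, and 20 of them start at the same base as in RefSeq. Between 39 and 43244 bases separate neighbouring beta genes. The handling of strand and of reads that match several of these similar genes is not given in the sources used here, so counts of close paralogs may be shared. An antisense non-coding RNA, Gm26672, lies within the gamma entry with 209 to 595 counts per library, against 21757 to 34104 for the gamma entry.

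The gamma entry supplied most clustered protocadherin RNA in every library. Library totals ran from 26799825 to 36167435 counts. Of all counts on the 24 genes, the gamma entry took 71.5% to 79.6%, the alpha entry 10.9% to 15.5% and the 22 beta genes together 9.49% to 13.0%. Per library, the alpha entry had 3876 to 6104 counts and the beta genes together 3348 to 4940. These are sums over loci of unequal size, and the gamma and alpha entries each collect many promoters.

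**Figure D1:**
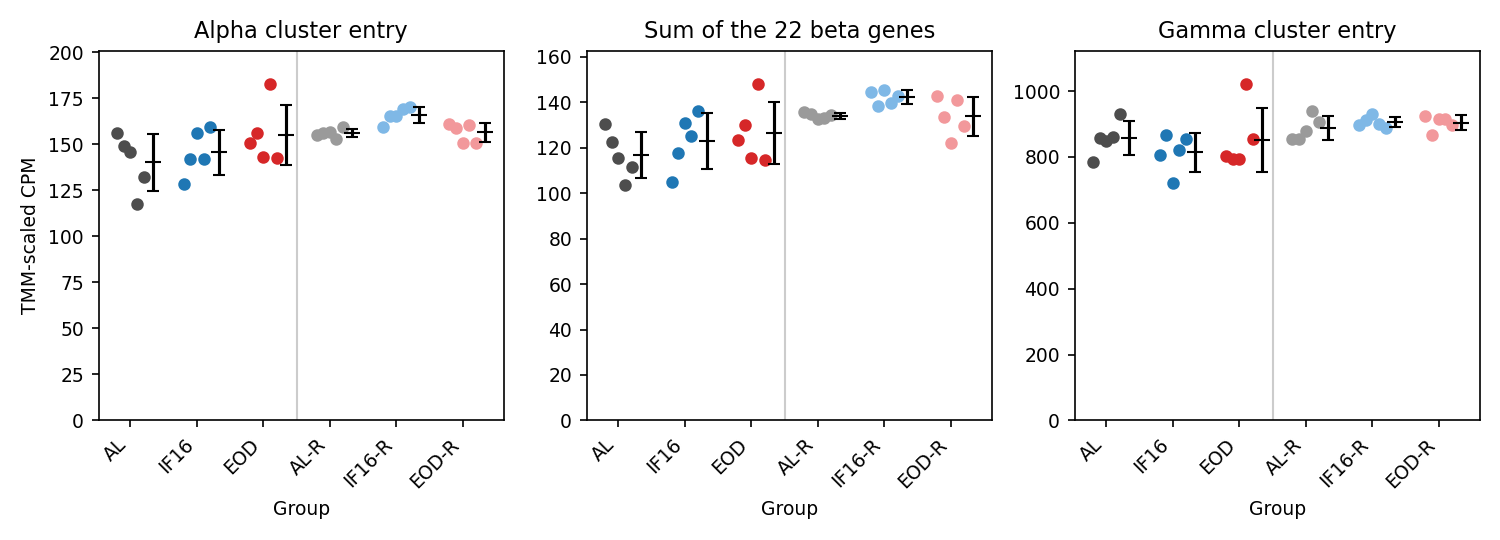
TMM-scaled CPM, counts relative to library size (vertical axis, linear from 0), for the alpha entry, the sum of the 22 beta genes and the gamma entry in the 6 groups of 5 libraries. Points are libraries, bars the mean ± SD, and the grey line divides the 2 tables. EOD replicate 4 stands highest in all 3 panels among the 15 libraries at the end of the regimens.

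Expression differed widely between the beta genes. Levels between genes are given as deposited FPKM, which divides by gene length. Pcdhb9 was highest at 5.09 ± 0.479 (SD over 30 libraries), followed by Pcdhb17 at 4.05 ± 0.339, Pcdhb14 at 3.44 ± 0.593, Pcdhb12 at 3.18 ± 0.393 and Pcdhb20 at 3.10 ± 0.239. A gap then led to Pcdhb22 at 1.78 ± 0.229. Pcdhb2 (0.659 ± 0.259), Pcdhb21 (0.445 ± 0.124) and Pcdhb1 (0.0386 ± 0.0262) closed the order. Pcdhb9 exceeded Pcdhb17 in 30 of 30 libraries. Only 4 of the 21 steps between neighbours in the order exceeded the larger of the 2 SDs: Pcdhb9 to Pcdhb17, Pcdhb17 to Pcdhb14, Pcdhb20 to Pcdhb22 and Pcdhb21 to Pcdhb1. The other steps did not exceed it. This rule leaves out that all genes were measured in the same libraries. At those steps the gene of higher mean stood above the next in 12 of 30 libraries (Pcdhb13 over Pcdhb7) to 26 of 30 (Pcdhb19 over Pcdhb2).

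Pcdhb1, the first beta gene on the chromosome, was close to silent. It collected 92 counts over the 30 libraries, 0 to 11 in each, and 2 libraries had none. It was the one member that did not pass the filter on low counts, so the tests below cover 23 members. A count of 0 allows up to 3 counts in a library.

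The beta order was similar from library to library. Spearman's rho of the 22 levels between 2 libraries had a median of 0.933 and a lowest value of 0.713 over the 435 pairs, which are not independent. The 5 highest genes do not sit together: they are beta genes 9, 12, 14, 17 and 20 along the array. For 3 genes the listed length differs from the RefSeq span by more than 10 bases, 7131 against 4714 bases for Pcdhb19, 4662 against 2712 for Pcdhb21 and 2453 against 3579 for Pcdhb6. With the RefSeq span these genes had mean FPKM of 1.21, 0.765 and 0.638 in place of 0.801, 0.445 and 0.931, so their ranks among the lower beta genes rest on the annotation.

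**Figure D2:**
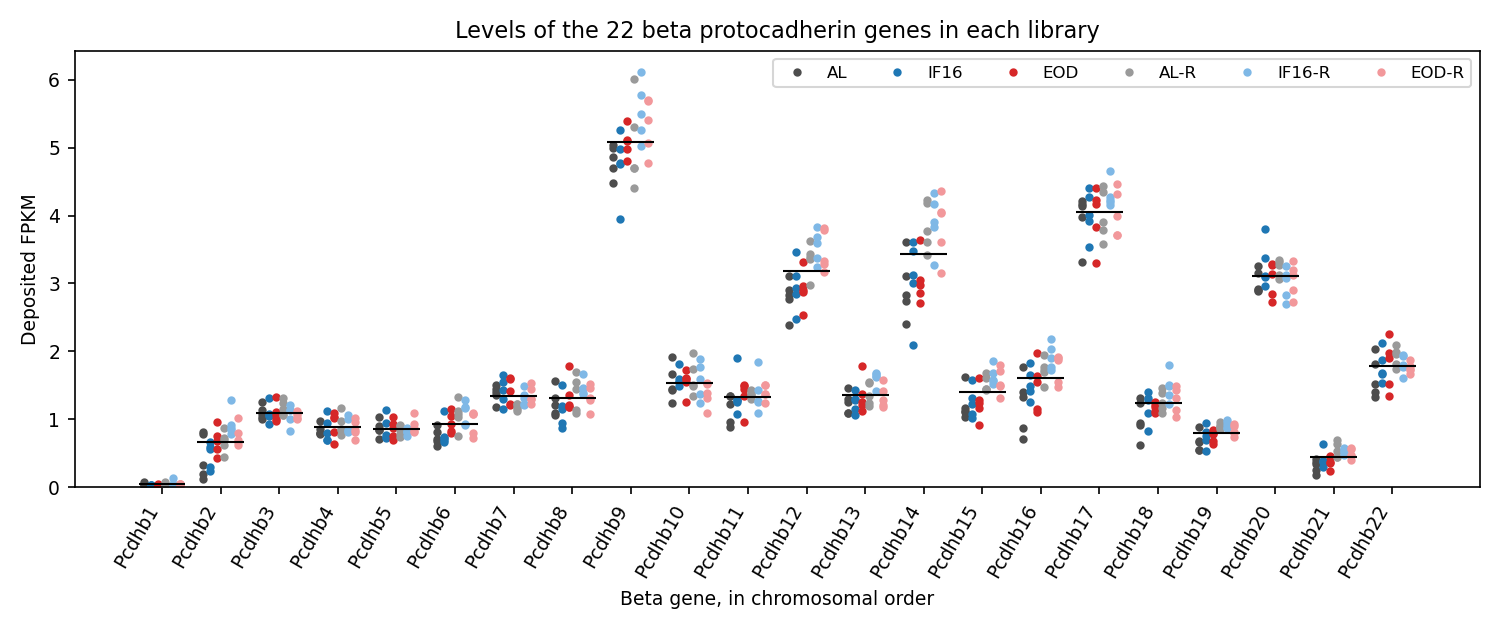
Deposited FPKM (vertical axis, linear from 0) of the 22 beta genes in chromosomal order, with 1 point per library coloured by group and a black line at the mean of 30 libraries. Pcdhb9, Pcdhb12, Pcdhb14, Pcdhb17 and Pcdhb20 stand above the other beta genes by mean.

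In 22 of the 24 members the coefficient of variation around the group means was lower after refeeding, with Pcdhb9 (7.46% against 9.32%) and Pcdhb10 (12.1% against 15.1%) the other way. At the end of the regimens and after refeeding it was 10.1% against 2.58% for the alpha entry, and 8.55% against 2.94% for the gamma entry. Counting alone would give 1.44% and 1.40% for the alpha entry. Pcdhb2 varied most among the tested genes, with 46.8% at the end of the regimens where counting gives 14.4%, and 22% after refeeding. Pcdhb21 (28.2%) and Pcdhb16 (24.5%) came next at the end of the regimens. After refeeding, Pcdhb5, Pcdhb7, Pcdhb19 and Pcdhb22 varied no more than counting error.

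The values of some members, group differences included, went with a property of the whole library. The length gradient of a library is the slope of log2 CPM on log2 gene length over all tested genes, relative to the other libraries. A low value means fewer counts on long genes. In 4 libraries at the end of the regimens it lay beyond 0.1 in size: AL replicate 4 (-0.158), AL replicate 5 (-0.106) and IF16 replicate 1 (-0.115) were low and EOD replicate 4 (0.141) was high. The deposited labels give no RNA quality value, and the origin of the gradient was not tested.

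The alpha entry followed this gradient closely. In CPM, counts scaled by TMM to a common library size, it had 118, 129 and 132 in the 3 low-gradient libraries, and 142 to 183 in the other 12, without overlap. Pcdhb2 (0.334 to 0.661 against 0.822 to 2.78 CPM) and Pcdhb19 (3.76 to 3.97 against 4.56 to 6.53 CPM) did not overlap either. The gamma entry did: it had 805 to 931 CPM in the low-gradient libraries and 720 to 1020 CPM in the rest. The low-gradient libraries were picked by a slope over all genes. The share of all genes that separate them likewise is not given here.

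Of the 23 members, 21 had a positive Pearson correlation with the gradient over the 15 libraries at the end of the regimens, with a median of 0.658. In 11 both r and rho had permutation p-values under 0.05 after adjustment over 46 relations. The gradient is itself a slope over all tested genes, and the share of all genes with such correlations is not given here. These counts therefore do not set the members apart from other genes. For the alpha entry r was 0.964 and rho 0.929 (permutation p = 1e-05 for both, the smallest that 100000 permutations can give; adjusted p = 0.00015), and r was 0.935 after the 2 libraries of most distant gradient were left out. Pcdhb19 (r = 0.925, rho = 0.936) and Pcdhb2 (r = 0.924, rho = 0.843) followed, each with an adjusted permutation p of at most 0.00092, and r stayed at 0.946 and 0.873 without the 2 farthest libraries. The gamma entry (r = -0.017, rho = -0.354, adjusted permutation p = 0.97 and 0.28) and Pcdhb20 (r = -0.003, rho = 0.161, adjusted permutation p = 0.99 and 0.63) had values of r near 0. Without the 2 farthest libraries r was -0.560 for the gamma entry and 0.072 for Pcdhb20.

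After refeeding, where gradients spanned a narrower range, 19 of 23 correlations were positive, with a median of 0.375. Here too the share over all genes is not given. In 7 both adjusted permutation p-values were under 0.05, with the alpha entry again first (r = 0.862, rho = 0.925, adjusted permutation p = 0.00046 and 0.00015; r = 0.825 without the 2 farthest libraries). Over the 21 tested beta genes, which share the same libraries, listed gene length and the size of r had a Spearman's rho of 0.413 at the end of the regimens and 0.0961 after refeeding.

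**Figure D3:**
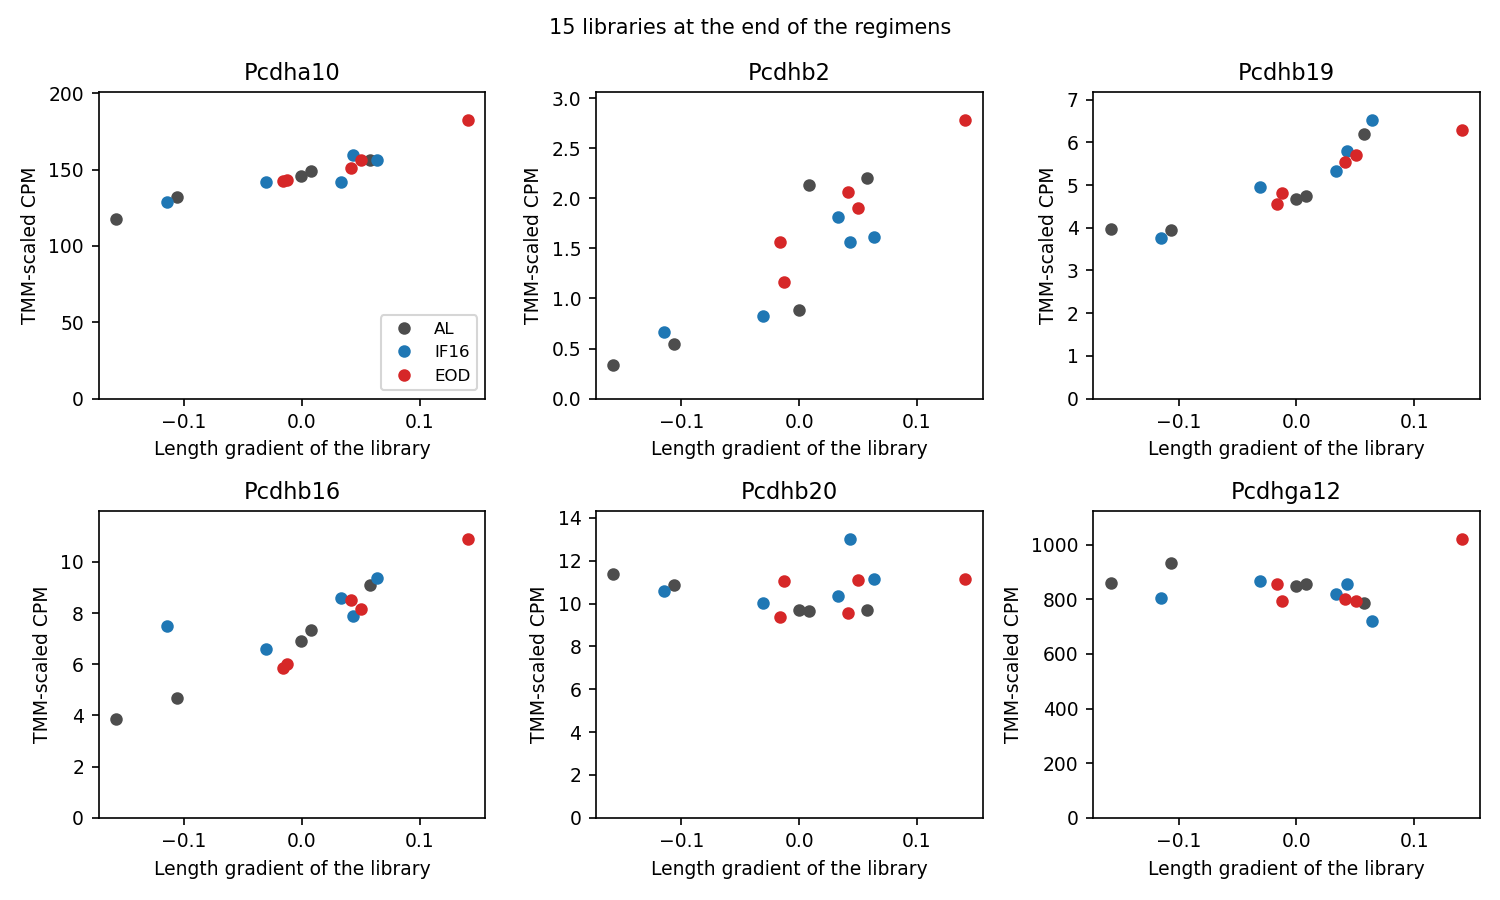
TMM-scaled CPM (vertical axis, linear from 0) against the length gradient of the library (horizontal axis, slope of log2 CPM on log2 gene length relative to the other libraries) for 6 members in the 15 libraries at the end of the regimens, coloured by group. Pcdha10, Pcdhb2, Pcdhb19 and Pcdhb16 climb from left to right, and Pcdhb20 (r = -0.003) and the gamma entry Pcdhga12 (r = -0.017) do not.

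The first comparison asked whether 3 months of daily fasting altered these genes. For IF16 against AL edgeR called 0 of 23 members, a call being an adjusted p under 0.05, and it called 0.0483% of all 16577 tested genes. DESeq2 also called 0 members, and 0.579% of all genes. At an unadjusted p under 0.05 both tools counted 0 members, against 9.92% of all genes by edgeR and 10.4% by DESeq2. The median log2 fold change was 0.05 over the members and -0.01 over all genes. The alpha entry had 118, 132, 146, 149 and 156 CPM in AL and 129, 142, 142, 156 and 159 CPM in IF16. The 2 groups overlapped, with a log2 fold change of 0.06 ± 0.09 (SE) and a 95% interval of -0.13 to 0.24. The gamma entry had 785 to 931 CPM (median 856) in AL and 720 to 868 CPM (median 820) in IF16, a log2 fold change of -0.07 with an interval of -0.24 to 0.09. Among beta genes the smallest p belonged to Pcdhb21 (0.40 ± 0.24, interval -0.11 to 0.91, adjusted p = 0.571).

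Alternate-day fasting gave the same number of calls. For EOD against AL, 0 of 23 members were called by either tool, where edgeR called 0.0664% of all genes and DESeq2 0.772%. Of the 23 differences 21 were above 0, where 46.7% were over all genes. The median was 0.12 over the members and -0.02 over all genes. The EOD libraries also had the higher mean gradient, 0.00190 against -0.0750 for AL in the scale of all 30 libraries. The ranges overlapped, with -0.0526 to 0.0972 in EOD and -0.186 to 0.0155 in AL. With the gradient in the fit the median over members was -0.03. The alpha entry had 143, 143, 151, 156 and 183 CPM in EOD, overlapping the AL libraries, and its log2 fold change of 0.15 (interval -0.04 to 0.33) was -0.00 with the gradient in the fit.

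Pcdhb6 was the one member with an unadjusted p under 0.05 in EOD against AL, by edgeR and by DESeq2. Among all genes 14.4% had one by edgeR, 7.02% with a higher value, and 15.5% by DESeq2. It had 1.52, 1.66, 1.76, 1.96 and 2.20 CPM in AL and 1.96, 1.99, 2.27, 2.6 and 2.93 CPM in EOD. The highest AL library lay inside the EOD range. The log2 fold change was 0.37 ± 0.17 (adjusted p = 0.337), and 0.20 with the gradient in the fit. For EOD against IF16 no member was called by edgeR (0.0% of all genes) or DESeq2 (0.00603%), and 0 had an unadjusted p under 0.05 by edgeR (3.62% of all genes) or DESeq2 (3.82%). The median over members was 0.03.

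**Figure D4:**
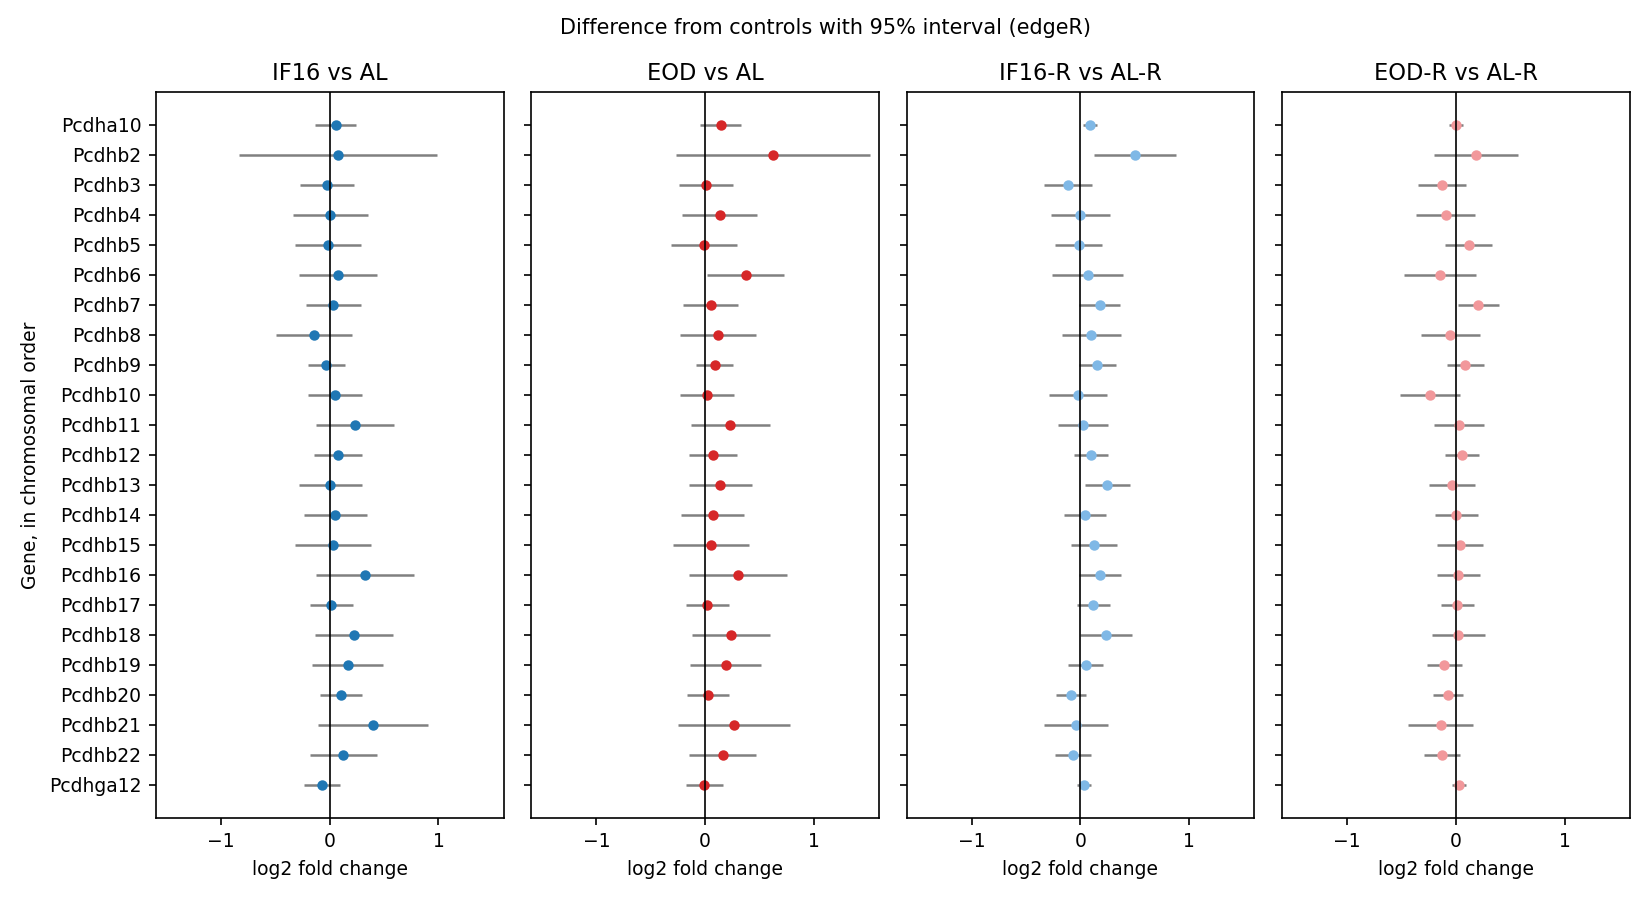
Log2 fold change (horizontal axis) with its 95% interval from edgeR for the 23 tested members in chromosomal order, in the 4 comparisons of a fasting regimen with its own controls. Intervals are widest for Pcdhb2 and narrowest after refeeding for the alpha and gamma entries, and no member was called in any panel.

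After 2 months of refeeding the comparison asked whether a difference remained or appeared. For IF16-R against AL-R, 0 of 23 members were called by edgeR (0.17% of all genes) and by DESeq2 (0.626%). At an unadjusted p under 0.05 edgeR counted 3, all higher, where 9.58% of all genes passed and 4.76% were higher. DESeq2 counted 4, where 9.38% of all genes passed. The alpha entry had 153, 155, 156, 157 and 159 CPM in AL-R and 159, 165, 165, 169 and 170 CPM in IF16-R. It was the one member whose groups did not overlap, with 159.47 CPM in the highest AL-R library and 159.49 in the lowest IF16-R library, and 1.07% of all genes were higher without overlap. Its log2 fold change was 0.09 ± 0.03 (interval 0.02 to 0.15, adjusted p = 0.364).

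Pcdhb2 had 1.25, 1.70, 1.88, 2.04 and 2.36 CPM in AL-R and 2.12, 2.36, 2.45, 2.55 and 3.62 CPM in IF16-R, a log2 fold change of 0.50 ± 0.18 (adjusted p = 0.363). The ranges overlapped, and the top value is a single library. Pcdhb13 had 4.40, 4.61, 4.98, 5.58 and 5.6 CPM in AL-R and 5.34, 5.91, 6.14, 6.19 and 6.31 CPM in IF16-R, a log2 fold change of 0.25 ± 0.10 (adjusted p = 0.429). Over the 15 refeeding libraries, group differences included, these 3 genes each followed the gradient. In the scale of all 30 libraries, every IF16-R gradient (0.0437 to 0.0801) lay above every AL-R gradient (0.0131 to 0.0326). With the gradient in the fit the 3 differences were 0.03, 0.29 and 0.11. An unadjusted p under 0.05 by edgeR was then reached by 0 members, against 4.15% of all genes. Calls over all genes went from 28 to 0. Because the gradients of these 2 groups do not overlap, this fit cannot tell the regimen from the gradient. The gamma entry differed by 0.03 with an interval of -0.04 to 0.09.

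EOD-R against AL-R had the median over members nearest to 0 of the 6 regimen comparisons, at 0.00. No member was called by edgeR (0.0426% of all genes) or DESeq2 (0.48%). The unadjusted count was 1 by edgeR (8.5% of all genes, 4.51% higher) and 0 by DESeq2 (8.19%). That gene was Pcdhb7, with 3.85, 3.97, 4.17, 4.31 and 4.31 CPM in AL-R and 4.23, 4.58, 4.59, 5.04 and 5.33 CPM in EOD-R, a log2 fold change of 0.21 ± 0.09 (adjusted p = 0.555). The ranges overlapped at the lowest EOD-R library. The alpha entry differed by 0.00 (interval -0.06 to 0.07) and the gamma entry by 0.03 (interval -0.04 to 0.09).

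For EOD-R against IF16-R, 0 of 23 members were called by edgeR (0.0182% of all genes), and 19 of 23 differences were below 0. Over all genes 52.1% of differences were above 0. The median over members was -0.08, and -0.03 with the gradient in the fit. DESeq2 called 0 members (0.736% of all genes), but its own filter left 21 of the 23 without an adjusted p. Both tools counted 2 members at an unadjusted p under 0.05, where edgeR had 9.75% of all genes, 4.76% lower, and DESeq2 9.54%. The members by edgeR were Pcdhb13 (-0.28 ± 0.10, adjusted p = 0.333) and the alpha entry (-0.08 ± 0.03, adjusted p = 0.367). With the gradient in the fit they were -0.16 and -0.03 and neither had an unadjusted p under 0.05. In the scale of all 30 libraries, gradients were 0.0107 to 0.0468 in EOD-R and 0.0437 to 0.0801 in IF16-R. They barely overlapped, so this fit separates regimen and gradient poorly. This comparison and the preceding ones share the IF16-R or the AL-R libraries.

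Whether a regimen's difference from its controls changed between the 2 collection times was tested as an interaction over all 30 libraries. For IF16 no member was called by edgeR (0.0474% of all genes) or DESeq2 (0.16%), and the median over members was 0.00. An unadjusted p under 0.05 was reached by 0 members with either tool, against 7.21% and 7.35% of all genes. For EOD no member was called by edgeR (0.0119% of all genes) or DESeq2 (0.083%). Of 23 estimates 20 were below 0, with a median of -0.17 that was -0.00 with the gradient in the fit. Over all genes 51.0% of estimates were above 0. Each tool counted 1 member at an unadjusted p under 0.05, where edgeR had 10.3% of all genes, 4.86% lower, and DESeq2 10.5%. By edgeR it was Pcdhb6 at -0.52 ± 0.23 (adjusted p = 0.467).

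The 2 sets of control mice gave the only called members. AL-R mice were 8 months old and AL mice 6, and each set forms its own table, so age and library set cannot be told apart. In a joint fit with common scaling 6 of 23 members were called, all higher in AL-R, which is 26.1% of the members where 23.9% of all genes were called and 11.5% were called higher. DESeq2 also called 6, and 26.4% of all genes. The called genes were all beta genes: Pcdhb21 (log2 fold change 0.81 ± 0.20, adjusted p = 0.00938), Pcdhb19 (0.43 ± 0.12, 0.0153), Pcdhb14 (0.38 ± 0.12, 0.0275), Pcdhb6 (0.50 ± 0.16, 0.0295), Pcdhb16 (0.49 ± 0.17, 0.0375) and Pcdhb12 (0.25 ± 0.09, 0.0409).

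Pcdhb21 had 0.849, 1.18, 1.54, 1.73 and 1.91 CPM in AL and 2.05, 2.10, 2.48, 2.92 and 3.18 CPM in AL-R, and it was the one member whose groups did not overlap (5.78% of all genes were higher without overlap). These CPM were scaled within each table. Pcdhb16 had 3.85, 4.67, 6.91, 7.32 and 9.11 CPM in AL and 7.76, 8.82, 8.90, 9.42 and 10.2 CPM in AL-R. Its lowest 2 AL libraries are replicates 4 and 5, both of low length gradient. The alpha entry (0.15, interval 0.01 to 0.29, adjusted p = 0.0973) and the gamma entry (0.05, interval -0.07 to 0.16) were not called.

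These calls moved with the gradient. With it in the fit none of the 6 was called, and their log2 fold changes lay between 0.08 for Pcdhb12 and 0.35 for Pcdhb21. The one call then was Pcdhb7, lower in AL-R (-0.40 ± 0.10, adjusted p = 0.0475), while calls over all genes went from 4030 to 222. The gradients of AL (-0.186 to 0.0155) and AL-R (0.0131 to 0.0326) barely overlapped, so this fit separates library set and gradient poorly. Without the 4 libraries of extreme gradient 0 members were called by edgeR, 6 of 23 had an unadjusted p under 0.05 (17.7% of all genes), and 405 genes were called in all. Leaving out AL replicate 4 or AL replicate 5 alone left 1 member called, where 4.88% and 7.34% of all genes were called. Leaving out AL replicate 1 gave 11, where 36.3% of all genes were called. Without AL-R replicate 1, 2 or 3 there were 3 calls (18.8%, 12.4% and 13.5% of all genes). Without AL-R replicate 5 there were 2 (17.3% of all genes).

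**Figure D5:**
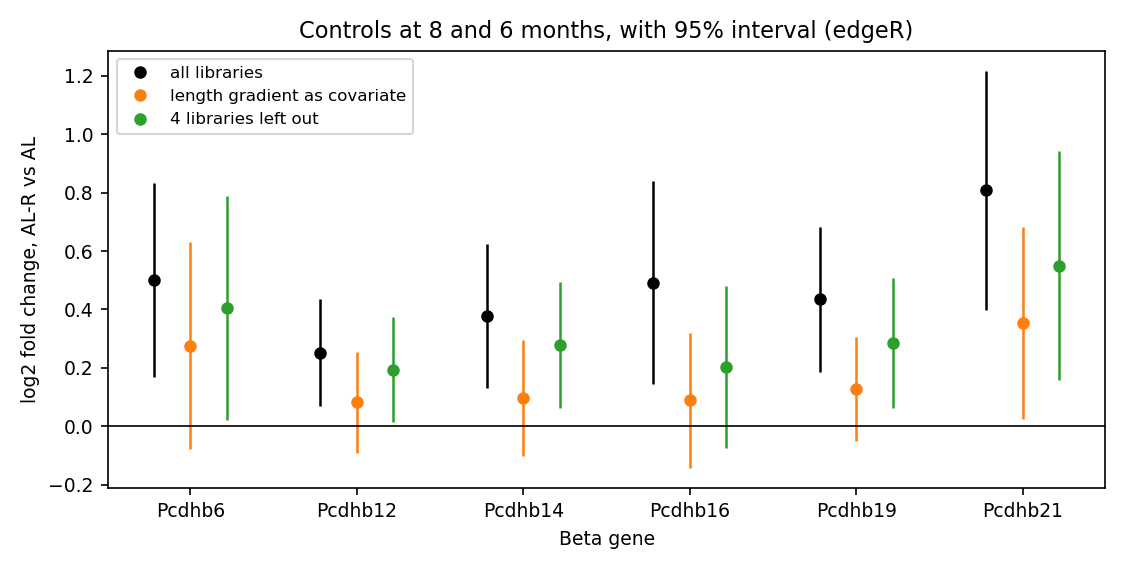
Log2 fold change of AL-R against AL (vertical axis) with 95% interval from edgeR for the 6 beta genes called in the comparison, from all libraries, with the length gradient as a covariate, and without the 4 libraries of extreme gradient. Every orange point lies below its black point, for Pcdhb16 at 0.09 against 0.49.

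Genes that act on or with the clusters were examined as lists, read by counts. The list of CTCF and cohesin factors (11 tested) holds the machinery that loops enhancers to the chosen promoter. The H3K9 and DNA methylation list (23 tested) holds the silencing side together with the Tet enzymes, which oxidise methylcytosine. The third list holds the cytoplasmic and cleavage partners (20 tested), and the fourth the 12 protocadherins encoded outside the clusters. The fifth holds 30 tested neighbours within 500 kb. In the 6 regimen comparisons and both interactions 0 genes of any list were called by edgeR, and DESeq2 called 1, among the non-clustered protocadherins in IF16-R against AL-R. At an unadjusted p under 0.05 a list had 0 to 6 genes per comparison by edgeR and by DESeq2. Over all genes 3.62% to 14.4% passed by edgeR and 3.82% to 15.5% by DESeq2. The highest shares by edgeR were 4 of 12 non-clustered protocadherins (33.3%) in EOD-R against IF16-R, where 9.75% of all genes passed, and 6 of 20 partners (30%) in IF16-R against AL-R, where 9.58% did. DESeq2 gave the same counts there, against 9.54% and 9.38% of all genes.

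Setdb1 and Smchd1 were thus not among called genes in any fasting comparison. The smallest p-values of the chromatin list in both 6-month comparisons belonged to Suv39h1, an H3K9 methyltransferase of constitutive heterochromatin, with 19.3 ± 1.03 CPM (SD, n = 5) in AL. Its level was 21.8 ± 1.14 CPM in IF16 and 21.8 ± 1.09 CPM in EOD (adjusted p = 0.408 and 0.314 by edgeR). Pcdh8, an activity-regulated protocadherin outside the clusters, had 6.85 ± 1.48 CPM in AL against 4.80 ± 0.617 CPM in IF16 and 4.87 ± 0.481 CPM in EOD (adjusted p = 0.284 and 0.242). Pcdh10 had 34.4 to 36.6 CPM in AL-R and 36.9 to 44.0 CPM in IF16-R, without overlap, at a log2 fold change of 0.20 ± 0.05 (adjusted p = 0.146). Between these 2 groups 1.07% of all genes were higher without overlap, and every IF16-R length gradient lay above every AL-R gradient.

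Between the 2 control sets the lists had calls by edgeR in these numbers. Of the CTCF and cohesin genes 5 of 11 were higher and 0 lower, among them Ctcf (0.21 ± 0.07, adjusted p = 0.0276) and Nipbl, the cohesin loader (0.45 ± 0.13, adjusted p = 0.0209). Of the chromatin genes 8 of 23 were higher and 0 lower, including Smchd1 (0.27 ± 0.07, adjusted p = 0.0143) and the 3 Tet enzymes that oxidise methylcytosine. Partners gave 3 higher and 1 lower, the non-clustered protocadherins 2 higher and 1 lower, and the chromosome neighbours 2 higher and 7 lower. Over all genes 11.5% were called higher and 12.4% lower, and the length gradient, in the scale of all 30 libraries, was -0.186 to 0.0155 in AL and 0.0131 to 0.0326 in AL-R.

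Tissue markers bear on these bulk values. Granule cell markers (8 of 8 listed) summed to 5709 to 6912 CPM and Purkinje cell markers (8 of 8) to 4775 to 7385 CPM over the 30 libraries. Purkinje markers summed to 4775 to 6122 CPM in AL and 6560 to 6809 CPM in AL-R, without overlap. This sum leans on 1 gene: Itpr1 had 1507 to 3476 CPM (median 2877) over the 30 libraries, and Pcp4 2.23 to 4.91 CPM. Oligodendrocyte markers (6 of 6) summed to 5557 to 6586 CPM in AL and 4908 to 5456 CPM in AL-R, and brainstem markers (5 of 5) to 22.8 to 32.9 CPM and 33.1 to 39.1 CPM, also without overlap. Slc6a5 (20.9 to 42.2 CPM over the 30 libraries) made up nearly all of the brainstem sum. All these sums were scaled within each table. In IF16-R the Purkinje markers summed to 6892 to 7309 CPM, above every AL-R library. The alpha entry also lay above every AL-R library, with 159.49 against 159.47 CPM in the nearest libraries. Of all genes 1.07% were higher in IF16-R without overlap. The length gradients of these 2 groups did not overlap either. The part of cell composition in these results was not tested. Choroid plexus markers (11 of 11) ranged from 155 to 5153 CPM and overlapped between the groups of each table.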

How the data were processed

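Gene counts from 30 cerebellum RNA libraries were analysed. As deposited by the authors, each gene has a whole-number read count and an FPKM value per library, in 2 tables of 15 libraries, with gene positions per the file headers. Per the submitters' processing notes STAR 2.5, HTSeq 0.6.1 and mm10 were used. Strand, multi-mapping and annotation release are not given in the sources used here. Total counts per library were 26799825 to 36167435.

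Differences were tested on counts by edgeR 4.0.16 (quasi-likelihood, R 4.3.3, limma 3.58.1) after TMM scaling and filterByExpr, with p-values adjusted by Benjamini-Hochberg over all tested genes. Regimens were compared within a table, and interactions and control sets in a joint fit. DESeq2 1.42.0 and the other settings of the closing section were alternatives. Correlations used 100000 permutations, two-sided. The script was tested on simulated counts. The members and lists were chosen with earlier results of these data known. Wapl is listed as Wapal. Named members were the 3 highest and the lowest of each cluster by FPKM, those called or of smallest p in each comparison, and those of highest and lowest variation. The rule's C-type genes have no entry of their own. Pcdhb5 and Pcdhb15 were named after their values were seen. The chromatin libraries were not analysed here.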

Additional observations from a re-analysis of the deposited data

Results flagged for a closer look

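In 8 of 144 sets of 5 libraries of one gene and group, the highest or lowest library stood far from the others, by Dixon's ratio above 0.71. About 7.2 such sets are expected by chance. The gamma entry had 1020 CPM in EOD replicate 4, from 34104 counts, and this library also had the highest length gradient. Pcdhb17 had 11.2 CPM in AL replicate 4, the lowest value of that group, in the library of lowest gradient. Pcdhb10 had 5.17 CPM and Pcdhb11 6.91 CPM in IF16 replicate 5, both the highest of their group. Pcdhb6 had 2.69 CPM in IF16 replicate 3 and Pcdhb15 had 4.45 CPM in AL replicate 1. After refeeding, Pcdhb2 had 3.62 CPM in IF16-R replicate 4, and Pcdhb1 had 0.350 CPM in IF16-R replicate 3, which is 11 counts. The part of the gradient in these values was not tested.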

How the results depend on the processing

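The count of called members was 0 in each of the 6 regimen comparisons and both interactions with DESeq2, other size factors, no filter on low counts, the length gradient as a covariate and each library left out in turn. It was also 0 in the regimen comparisons fitted on only the 2 groups compared, and, chosen after seeing the data, without the 4 libraries of extreme gradient in the 3 comparisons at the end of the regimens and both interactions. DESeq2 left 21 of 23 members without an adjusted p in EOD-R against IF16-R. The control sets gave 6 calls, 5 without the filter, and 6 with DESeq2 and with other size factors. They gave 1 with the length gradient as a covariate, 0 without the 4 libraries, and 1 to 11 with a library left out. With a library left out, 4.88% to 36.3% of all genes were called. With the replicate number as a block 2 members were called there and 0 elsewhere; same-numbered libraries correlated between -0.520 and 0.419, and at most 3 of 5 correlated best with their own number, so the numbers were not taken as pairs. Calls over all genes between the control sets were 4030, 3144 without the filter, 222 with the gradient, 405 without the 4 libraries, 830 without AL replicate 4 and 1250 without AL replicate 5. Single values were followed for 45 results of named members only, so calls gained by other members, such as Pcdhb7 with the gradient, are not counted here. Of 1069 recomputed values of these results, 1007 stayed called or, not called, moved by less than 1 SE. Of the rest 40 fell below the threshold, 1 rose above it and 21 that were not called moved by more than 1 SE. No called value changed sign, and 26 values that were not called did. The cause of these changes was not tested. Depth limits Pcdhb1, with 0 to 11 counts.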
